A study of Mus musculus with 20 samples.

Results

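The genes described here encode the killing machinery and the secreted effector signals of activated mouse CD8 T cells. They are the granule proteins Gzmb, Gzma, Prf1 and Srgn, the cytokine Ifng and the chemokines Ccl3, Ccl4, Ccl5 and Xcl1. The 9 genes were chosen by name, and each had 1 row, the 3′ UTR of 1 transcript, among the 20586 rows of a deposited count table, of which 16227 different genes could be named.

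Cytotoxic T cells kill by releasing the content of lysosome-like granules toward a target cell. Perforin opens the target membrane, granzymes enter and cleave proteins that lead to cell death, and the proteoglycan serglycin holds granzymes and perforin in the granule. The same cells secrete interferon gamma, which acts on macrophages and on antigen presentation, and chemokines that draw in other leukocytes. Many cytokine and chemokine mRNAs are regulated through their 3′ UTRs, and CPEB4 is a protein that binds cytoplasmic polyadenylation elements in 3′ UTRs.

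The measurement was RNA immunoprecipitation followed by sequencing (RIP-seq), in which mRNAs bound by CPEB4 are pulled down with an antibody and counted beside the starting RNA, called input. CD8 T cells of C57BL/6 wild-type (WT) and Cpeb4 knockout (KO) animals, purified from spleen and lymph nodes, were stimulated in all 4 groups through CD3 and CD28, with antibodies at 1 μg/ml each, in IL-2 at 20 ng/ml for 48 h. Input and immunoprecipitate (IP) of each genotype made up the 4 groups, and the KO cells served as the background of the antibody. Input RNA was poly(A) purified and amplified for 12 PCR cycles, and IP RNA was not purified and was amplified for 7 cycles, so IP and input also differ in preparation. The labels give neither the age, sex nor number of the animals, nor the part of Cpeb4 that the knockout removes, and they do not say whether D1 and RIP8, the names of the experiments, came from separate animals. P-values therefore measure only the spread between these libraries, which may be technical.

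Of the 20 runs in the table, 9 could be used for named genes, because the values of the other 11 did not match the row names beside them. The 9 runs came from 6 libraries: the WT and KO inputs of D1 and of RIP8, and the WT and KO IPs of D1. The libraries labelled WT IP D1, KO IP D1 and WT input RIP8 had 2 runs each and the others 1. Their totals were 364113 to 4182830 counts, with 4 runs over 1000000 and 5 under. A single row in Lars2 held 34.8 to 50.1% of the counts in the 5 shallower runs and 1.16 to 5.40% in the 4 deeper ones. It was taken out, and levels are given as CPM, counts per 1000000 of what remained in the run. Runs of 1 library differed beyond counting error and runs with different labels resembled each other, so every value below is that of the run or library labelled with a name, and a direction holds for these names only.

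Cpeb4, the targeted gene, had 12.0 to 47.1 CPM in the deeper runs and 110.0 to 195.3 CPM in the shallower ones. Among the latter it had 110.0 CPM (22 counts) in the run labelled KO input D1 and 124.9 CPM (24 counts) in WT input D1. These counts did not separate the KO runs from the WT runs, and they lie in a 3′ UTR that the knockout may leave in place. The 6 measured CD8 T cell markers summed to between 2076.7 and 5161.2 CPM, and Cd8a alone to at least 719.7 CPM. Natural killer cells, which also express granzymes, perforin and these chemokines, were represented by 7 markers that summed to between 5.20 and 31.0 CPM. Of these Ncr1 was at 0.521 CPM or less and Klra7 reached 13.3 CPM. The 4 CD4 T cell markers summed to between 65.7 and 177.0 CPM. The 5 B cell markers summed to at most 46.9 CPM, with Pax5 at 0 and Cd79b at up to 33.3 CPM. The 7 myeloid markers summed to between 22.1 and 103.5 CPM, with Adgre1, S100a8 and S100a9 at 0. Among them Cst3 reached 74.7 CPM, and Csf1r was found in every run, at 9.45 to 37.7 CPM. The myeloid sum was 85.2 to 103.5 CPM in the 4 deeper runs. The 5 mast cell and basophil markers were at 0 in all 9 runs, and the 5 erythroid and platelet markers summed to at most 0.261 CPM. The part of other cells in the values below was not tested, and in RNA from whole cultures fewer cells of a type and less RNA per cell cannot be told apart.

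The rows were placed on GRCm38 (mm10) by transcript and 3′ UTR start, which is the lower coordinate of the UTR. Gzmb, Gzma, Srgn, Ccl3 and Xcl1 lie on the minus strand, where this coordinate is at the 3′ end of the gene. The row of Gzmb (ENSMUST00000015581) lies at 56258856 of chromosome 14, that of Gzma (ENSMUST00000023897) at 113093825 of chromosome 13 and that of Xcl1 (ENSMUST00000027860) at 164931644 of chromosome 1. On chromosome 10 lie Prf1 (ENSMUST00000035419) at 61303930, Srgn (ENSMUST00000160987) at 62493833 and Ifng (ENSMUST00000068592) at 118445262. On chromosome 11 lie the CC chemokine genes Ccl5 (ENSMUST00000035938) at 83525778, Ccl3 (ENSMUST00000001008) at 83647844 and Ccl4 (ENSMUST00000019074) at 83664382. The RefSeq gene models of Ccl3 and Ccl4 overlap, and how reads in overlapping or related genes were counted is not given in the sources used here. UTR lengths were not used here, so levels are compared between runs and not between genes.

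Promoter windows of 300 bases, from 250 before to 50 after the transcription start, were taken from RefSeq GRCm38.p6 for 7 of the 9 genes, with 2 windows for Srgn and none for Ccl4 and Ccl5. They are shown for a feature in which the genes differ, the TATA box of the core promoter, searched here as TATAA. The letters lay within the 40 bases before the start, on the strand of the gene, in 3 of 8 windows, those of Ifng, Gzma and Ccl3, against 4.23% of 32851 promoters. On either strand of the whole window they were found in 4 of 8 windows, the fourth being 1 of the Srgn windows, against 24.9% of all promoters. The 30 bases around each match follow, 5′ to 3′ on the strand of the gene with the match in capitals. A match is a description of these letters and not of a factor bound there.
Ifng: ccttcgatcaggTATAAaactggaagccag
Gzma: tgcactctcataTATAAgtagaaagaaaca
Ccl3: gctagggctaccTATAAgagaaggggcata
The Ifng window is chr10:118441004-118441033 on the plus strand and its match begins 30 bases before the start. The Gzma window is chr13:113100991-113101020 on the minus strand with the match beginning 27 bases before the start, and that of Ccl3 is chr11:83649372-83649401 on the minus strand with the match beginning 11 bases before it. Gzmb, Prf1 and Xcl1 did not have these letters in their windows.

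Gzmb, which encodes granzyme B, the serine protease that activates caspases in target cells, gave 41137 counts in all. Among the deeper runs its level was 4391 CPM in batch 2 of the library labelled WT input RIP8, 4317.8 and 2261 in batches 3 and 2 of KO IP D1, and 856.7 in WT IP D1 batch 3. Among the shallower runs it was 545.1 CPM in WT input RIP8 batch 1, 465.9 in KO input RIP8 batch 2, 291.5 and 244.9 in the WT and KO inputs of D1, and 231.9 in WT IP D1 batch 2. The highest run stood 18.9-fold above the lowest. All 4 deeper runs lay above all 5 shallower ones, and among the shallower runs the 2 labelled RIP8 lay above the 3 labelled D1. The neighbours WT input RIP8 batch 2 and KO IP D1 batch 3 did not differ beyond counting error, and the 95% intervals of the 3 shallow D1 runs overlapped one another.

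Prf1, the perforin gene, followed a like order in the deeper runs at far fewer counts. It had 34.5 CPM (141 counts) in WT input RIP8 batch 2, 27.6 CPM (68 counts) and 19.5 CPM (75 counts) in batches 3 and 2 of KO IP D1, and 5.26 CPM (21 counts) in WT IP D1 batch 3. Each of the 5 shallower runs held 1 count, worth 3.15 to 5.20 CPM. WT IP D1 batch 3 thus lay at the level of a single count in the shallow runs, while the other deeper runs lay above it.

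Gzma, which encodes granzyme A, a tryptase-like granzyme, was rare. It had 25 counts (6.26 CPM) in WT IP D1 batch 3, 14 (5.68 CPM) and 11 (2.87 CPM) in batches 3 and 2 of KO IP D1, and 18 (4.41 CPM) in WT input RIP8 batch 2. It had 0 counts in the 5 shallower runs, where a floor of 3 counts equals 9.45 to 15.6 CPM and the exact 95% intervals reach 11.6 to 19.2 CPM. A level like that of the deeper runs was therefore not detectable there.

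Srgn, the gene of serglycin, had 566.7 and 318.5 CPM in batches 2 and 3 of KO IP D1, 426.2 in WT IP D1 batch 3 and 339.2 in the deeper run of WT input RIP8. In the shallower runs it had 95 CPM (19 counts) in KO input D1, 93.7 (18 counts) in WT input D1, 74.0 (15 counts) in WT IP D1 batch 2, 45.5 (13 counts) in KO input RIP8 batch 2 and 41.0 (13 counts) in WT input RIP8 batch 1. The deeper runs again lay above the shallower ones. Their order differed from that of Gzmb, and WT IP D1 batch 3, the lowest of the deeper runs for Gzmb, came second. Among the shallower runs the point values named D1 lay above those named RIP8, but the 95% intervals of these runs overlapped, so they cannot be ordered.

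Ifng, the interferon gamma gene, had 41.1 CPM (168 counts) in WT input RIP8 batch 2, 40.4 (155 counts) and 23.1 (57 counts) in batches 2 and 3 of KO IP D1, and 26.6 (106 counts) in WT IP D1 batch 3. The shallower runs held 1 to 5 counts each, from 5.00 CPM in KO input D1 to 17.5 CPM in KO input RIP8 batch 2. The point values of the deeper runs lay above those of the shallower runs, but with so few counts the intervals overlapped. Those of the shallower runs reached up to 22.8 CPM in WT input RIP8 batch 1 and 40.9 CPM in KO input RIP8 batch 2. That of KO IP D1 batch 3 began at 17.5 CPM.

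Ccl5, the chemokine RANTES, had 187.1 CPM (718 counts) and 57.2 (141 counts) in batches 2 and 3 of KO IP D1, 106.7 (426 counts) in WT IP D1 batch 3 and 58.7 (240 counts) in the deeper run of WT input RIP8. The shallower runs held 2 to 8 counts, from 7.01 CPM in KO input RIP8 batch 2 to 41.6 CPM in WT input D1. By point values KO IP D1 batch 2 was highest and WT IP D1 batch 3 second, as for Srgn.

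Ccl4, the chemokine MIP-1β, had 24.8 CPM (95 counts) in KO IP D1 batch 2 and 24.3 CPM (97 counts) in WT IP D1 batch 3. It had 1.62 CPM (4 counts) in KO IP D1 batch 3 and 0.734 CPM (3 counts) in WT input RIP8 batch 2, and between 0 and 2 counts in each shallower run. The deeper runs thus fell into a pair with 95 or more counts each and a pair with at most 4, and the shallower runs were too shallow to be placed with either.

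Ccl3, the chemokine MIP-1α, split the deeper runs in the same way, with 13.8 CPM (53 counts) in KO IP D1 batch 2 and 10.0 CPM (40 counts) in WT IP D1 batch 3, against 2.2 CPM (9 counts) in WT input RIP8 batch 2 and 0.406 CPM (1 count) in KO IP D1 batch 3. Xcl1, lymphotactin, which attracts dendritic cells that carry XCR1, had 8.86 CPM (34 counts) in KO IP D1 batch 2, 3.01 CPM (12 counts) in WT IP D1 batch 3 and 1.22 CPM in both other deeper runs (5 and 3 counts). Xcl1 had 0 counts in the 5 shallower runs and Ccl3 had at most 1, so neither can be ordered there. All 4 chemokine genes had their highest levels among the deeper runs in KO IP D1 batch 2 and WT IP D1 batch 3.

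**Figure D1:**
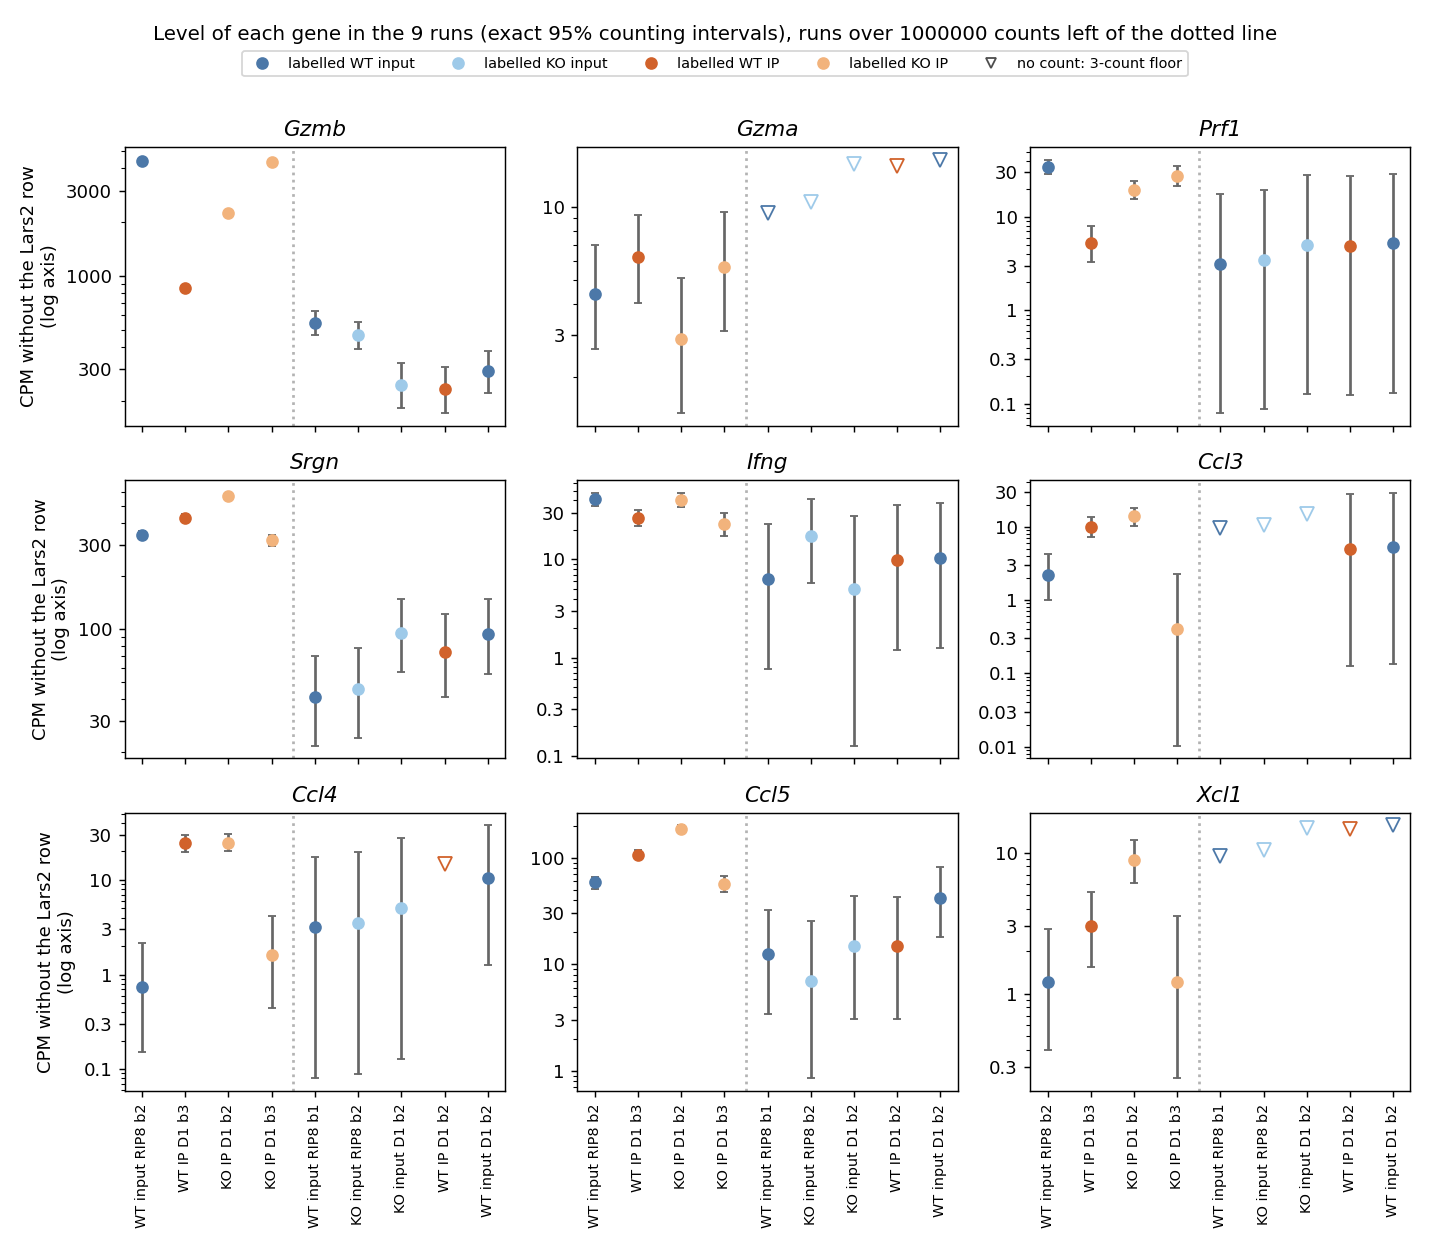
Level of each gene in the 9 runs in CPM without the Lars2 row (log axis), with exact 95% Poisson intervals for counting error; colours give the group in the label, and open triangles mark runs with no count at their 3-count floor. For Gzmb the 4 runs left of the dotted line, with over 1000000 counts, sit between 856.7 and 4391 CPM and the other 5 between 231.9 and 545.1 CPM.

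By point values, 7 of the 9 genes were higher in all 4 deeper runs than in all 5 shallower ones, but for 2 alone, Gzmb and Srgn, did the 95% counting intervals of the classes also lie apart. How many of all rows had such an order was not counted, so it is not a trait shown for these genes. Gzma and Xcl1 had 0 counts in every shallower run, where the floor lay above their levels in the deeper runs. Prf1 rested on 5.26 CPM against 1 count worth 5.20 CPM. For Gzmb the lowest bound among the deeper runs was 828.3 CPM and the highest among the shallower 632.6, and for Srgn these were 296.6 and 148.3 CPM. For the other genes the shallower runs held at most 8 counts each, and their intervals reached into the range of the deeper runs, up to 82.0 CPM for Ccl5, 40.9 for Ifng and 29.0 for Prf1. The deeper runs include runs labelled WT input, WT IP and KO IP and the shallower ones include all groups but KO IP. WT input and WT IP thus had runs in both classes, but both KO IP runs were deeper and both KO inputs shallower. For the KO runs the fraction in the label and the depth class cannot be told apart. The share of the Lars2 row moved with the difference in Gzmb and Srgn. The lowest sums of the myeloid, CD8 T cell, natural killer cell and B cell markers also fell in shallower runs, and that of the CD4 T cell markers in a deeper run. The part of the Lars2 row and of these cells in the difference was not tested.

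Runs labelled as 1 library gave different levels of these genes. For KO IP D1, Gzmb in batch 2 was 0.524 times its level in batch 3 (exact 95% interval for counting error 0.509 to 0.539), and Prf1 was 0.708 times (0.503 to 0.998). The other way lay Srgn at 1.78 times (1.64 to 1.93), Ifng at 1.75 times (1.28 to 2.41), Ccl5 at 3.27 times (2.73 to 3.95), Ccl4 at 15.3 times (5.76 to 57.1) and Xcl1 at 7.28 times (2.29 to 37.0). Ccl3 had 53 counts against 1, a ratio of 34.0 with an interval of 5.85 to 1369.2. The granzyme B and perforin mRNAs were thus lower in batch 2 of this library while serglycin, interferon gamma and the chemokines were higher. With intervals that left out 1, 6 of 9 genes were higher and 2 lower, where 26.4% of 10346 rows were higher and 31.5% lower.

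In the library labelled WT IP D1, Gzmb in batch 3 was 3.69 times its level in batch 2 (2.77 to 5.04), Srgn 5.76 times (3.48 to 10.3) and Ccl5 7.21 times (2.45 to 35.1). Ccl4 had 97 counts in batch 3 and 0 in batch 2, and its interval began at 1.31. Of 8 genes with 20 or more counts in the pair, 4 were higher in batch 3 and 0 lower, where 22.1% of rows were higher and 34.4% lower. In WT input RIP8, batch 2 stood above batch 1 for all 5 genes that could be compared, where 24.4% of rows were higher and 24.5% lower. Gzmb was 8.06 times as high (6.94 to 9.41), Srgn 8.28 times (4.83 to 15.6), Ccl5 4.66 times (1.80 to 17.2) and Ifng 6.53 times (1.78 to 54.3), and Prf1 had 141 counts against 1, a ratio of 11 (1.93 to 435.6). These differences lie between sequencing runs that share a library name, so they are a spread that a comparison of libraries must be read against.

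The run labelled KO IP D1 batch 3 and the run labelled WT input RIP8 batch 2 carry different genotypes, fractions and experiments in their names, and their levels of these genes were close. Gzmb had a ratio of 0.983 (0.960 to 1.01), Srgn 0.939 (0.859 to 1.03), Ccl5 0.974 (0.785 to 1.2) and Prf1 0.800 (0.590 to 1.08). Ifng alone had an interval that left out 1, at 0.563 (0.409 to 0.764). Of 6 genes compared, 0 were higher and 1 lower, where 8.96% of 10318 rows were higher and 9.43% lower. These shares of all rows are lower than those in the 3 pairs of runs named for 1 library.

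The study's direct contrast between IP groups, WT IP against KO IP, could be formed within each of 2 sequencing batches, with 1 run a group and therefore no test over replicates. In batch 2, Gzmb in WT IP was 0.103 times its level in KO IP (0.0753 to 0.137), Srgn 0.131 times (0.0730 to 0.216), Ccl5 0.0791 times (0.0163 to 0.232) and Ifng 0.244 times (0.0293 to 0.898). Ccl4 had 0 counts against 95, with an upper bound of 0.750. Of 8 genes compared, 0 were higher and 5 lower, where 26.8% of 9827 rows were higher and 22.6% lower. That WT IP run is one of the shallower runs and that KO IP run one of the deeper, so genotype label and depth class cannot be told apart in this pair.

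In batch 3, where both runs are deeper runs, the genes divided. Gzmb and Prf1 were lower in WT IP, at 0.198 times (0.191 to 0.206) and 0.191 times (0.111 to 0.315), whereas Srgn was higher at 1.34 times (1.23 to 1.46), as were Ccl5 at 1.87 times (1.54 to 2.27) and Ccl4 at 15.0 times (5.66 to 56.1). Ccl3 had 40 counts against 1, a ratio of 24.7 (4.19 to 999.8). This made 4 of 8 genes higher and 2 lower, where 25.8% of 10196 rows were higher and 48.3% lower. The direction of Srgn, Ccl4 and Ccl5 between WT IP and KO IP was opposite in the 2 batches, and that of Gzmb was the same.

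Between the inputs, KO input D1 was 0.840 times WT input D1 for Gzmb (0.561 to 1.26) and 1.01 times for Srgn (0.504 to 2.05). None of the 2 genes with enough counts had an interval that left out 1, where 2.2% of 4448 rows were higher and 2.47% lower, and the intervals allow a difference of the size of their bounds. In RIP8 batch 2 the KO input lay below the WT input for 4 of 5 genes, where 24.9% of 9970 rows were higher and 24.8% lower. There Gzmb was 0.106 times as high (0.0888 to 0.126), Srgn 0.134 times (0.0713 to 0.230) and Ccl5, with 2 counts against 240, 0.119 times (0.0144 to 0.436). That WT input run is one of the deeper runs and that KO input run one of the shallower. Against the shallow run of the same WT library, 545.1 CPM, the KO input at 465.9 CPM had a Gzmb interval that overlapped.

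**Figure D2:**
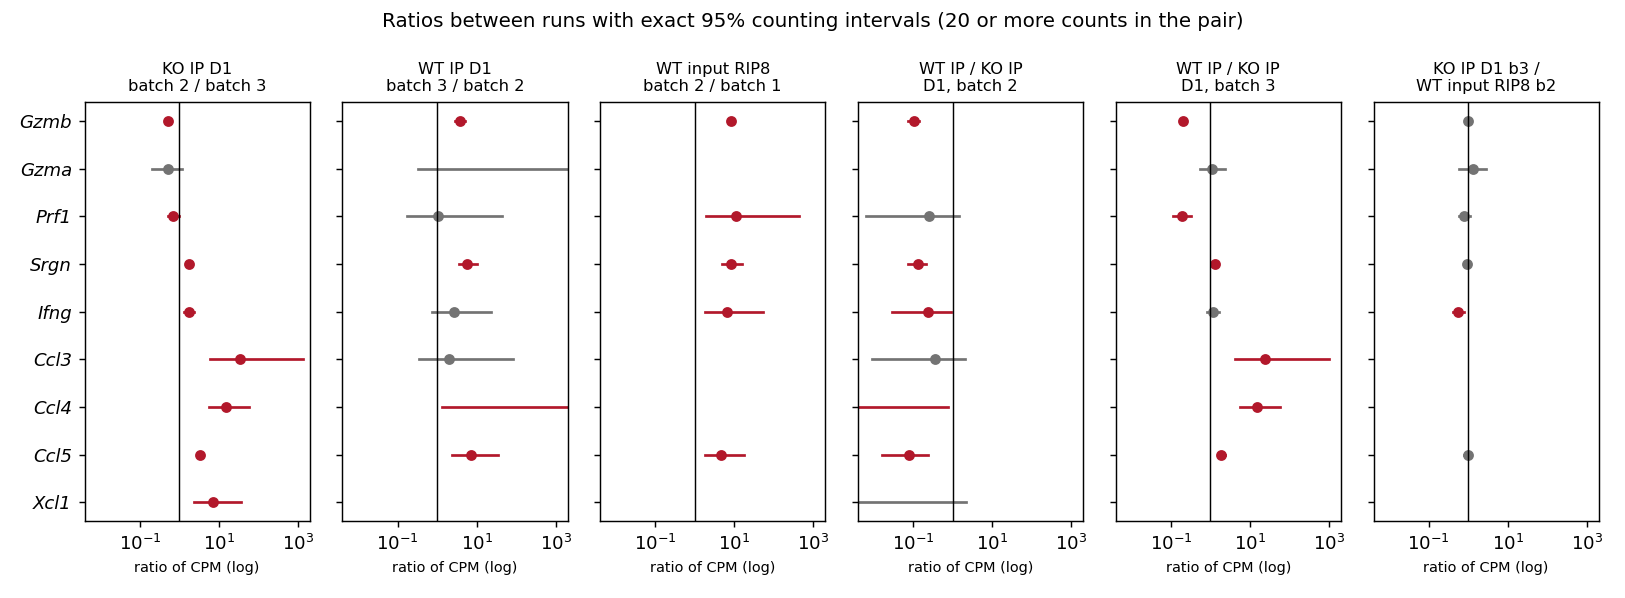
Ratios of CPM between pairs of runs (log axis) with exact 95% counting intervals, red where the interval leaves out 1, shown for genes with 20 or more counts in the pair; a line without a point has 0 counts on one side. In KO IP D1, Gzmb and Prf1 sit left of 1 and the chemokines right of it, and in the last panel all genes but Ifng have intervals that hold 1.

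Counts relative to Gzmb within a run do not depend on the run's total. Per 1000 Gzmb counts, Srgn had 497.5 counts in WT IP D1 batch 3, 387.8 in KO input D1, 321.4 in WT input D1, 319.1 in WT IP D1 batch 2 and 250.6 in KO IP D1 batch 2. It had 97.7 in KO input RIP8, 77.3 and 75.1 in batches 2 and 1 of WT input RIP8, and 73.8 in KO IP D1 batch 3. The first 5 runs are all named D1, and the lower 4 are the 3 runs named RIP8 and KO IP D1 batch 3. Within each set the runs include shallow and deep ones. The shallow runs have wide intervals, and that of WT IP D1 batch 2, 165.8 to 580.9, overlapped that of KO input RIP8, 50.7 to 173.0.

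Ccl5 gave the same division, with 142.9 counts per 1000 Gzmb counts in WT input D1, 124.6 and 63.8 in batches 3 and 2 of WT IP D1, 82.7 in KO IP D1 batch 2 and 61.2 in KO input D1. It had 23.1 and 13.4 in batches 1 and 2 of WT input RIP8, 15.0 in KO input RIP8, and 13.3 in KO IP D1 batch 3. Several of these rest on 2 to 8 Ccl5 counts, and the intervals of KO input D1, 12.2 to 189.7, and WT IP D1 batch 2, 12.7 to 198.3, reach into the lower set. In the deeper runs Ccl4 went the same way, with 28.4 in WT IP D1 batch 3 and 10.9 in KO IP D1 batch 2 against 0.376 in KO IP D1 batch 3 and 0.167 in the deeper run of WT input RIP8. Prf1 did not, with 6.14 and 8.64 against 6.39 and 7.86 in the same order, and its intervals overlapped.

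**Figure D3:**
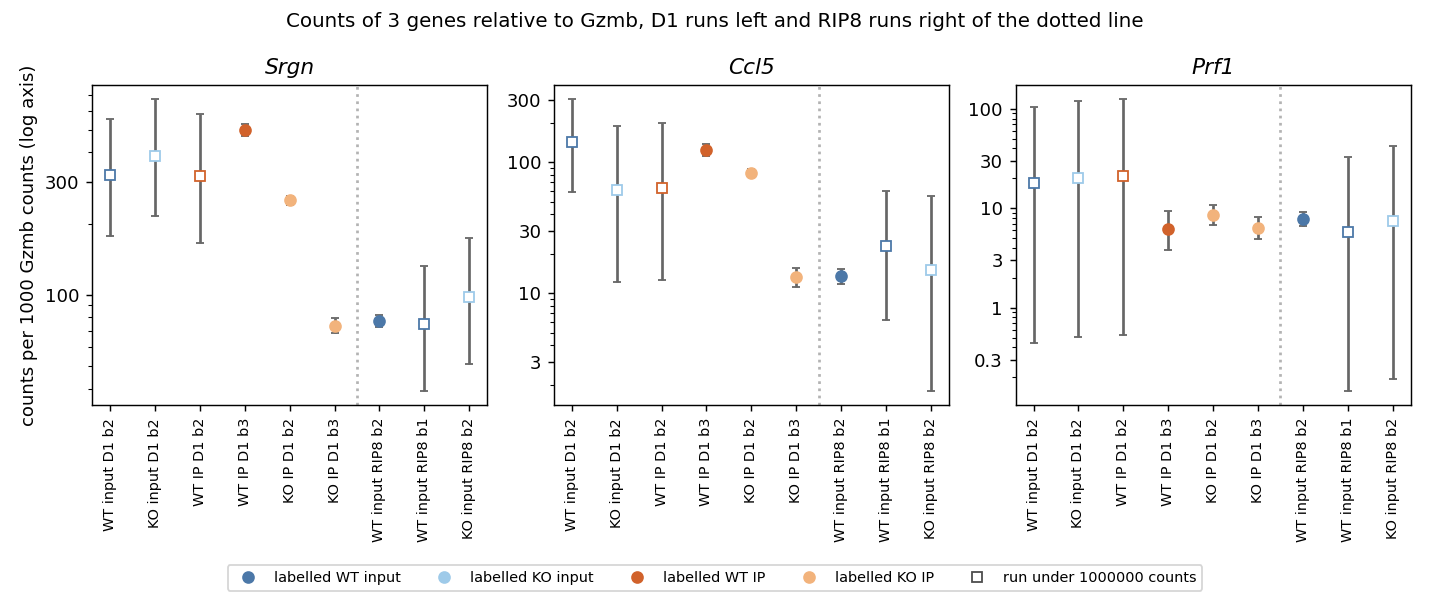
Counts of Srgn, Ccl5 and Prf1 per 1000 Gzmb counts in each run (log axis), with 95% intervals for counting error; runs named D1 stand left of the dotted line and runs named RIP8 right of it, and open squares are runs under 1000000 counts. For Srgn the run KO IP D1 batch 3, at 73.8, lies with the RIP8 runs at 75.1 to 97.7 and below the other D1 runs at 250.6 to 497.5.

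The tests over libraries summed the runs of each library and used edgeR's quasi-likelihood test on 11496 rows, with all 9 genes among them, and a Benjamini-Hochberg adjusted p of 0.05 as the threshold. The lone WT IP and KO IP libraries were taken to vary like the inputs. No row was called in any of the 5 comparisons, so the background of each was 0.0%, and no gene described here was called either. At an unadjusted p under 0.05, edgeR had 124 rows for the IP over input ratio in WT against KO, 33 for WT IP against KO IP, 878 for WT IP against WT input, 1723 for KO IP against KO input and 600 for KO input against WT input. DESeq2 called 0, 0, 43, 196 and 24 in the same order.

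The IP over input ratio in WT against that in KO addresses which mRNAs came down with CPEB4 itself. Gzma, Ccl3 and Xcl1 had 0 counts in both KO inputs, so their fitted values give no size and are left out here. Of the other 6 genes 5 lay below 0 and 1 above, with a median log2 value of −2.02, where the 11124 rows with a count in a KO input had a median of −0.23 and 57.1% lay below 0. Gzmb had −4.35 ± 1.96 (SE) and Prf1 −4.31 ± 1.88, both with an unadjusted p under 0.05 and an adjusted p of 1.0 by edgeR. Ccl5 had −2.42 ± 1.24, Srgn −1.62 ± 1.34 and Ifng −1.39 ± 1.56, and Ccl4 had 1.65 ± 2.19. Without the library labelled WT input D1, Gzmb had −5.26, Prf1 −4.91 and Ccl5 −2.68. These genes passed the threshold, but so did 10.2% of all 11618 rows in that fit. It left 1 library in every group but KO input, so its spread came only from the difference between the KO inputs. Its common dispersion was 0.0752, against 0.281 with all 6 libraries, and its calls are not read as results. Without WT input RIP8, where the same limit holds, Gzmb fell to −1.24 and Srgn to −0.31. Srgn turned to 1.03 and Ccl5 to 0.20 when only the run outside batch 2 was taken from each library with 2 runs. That choice sets deeper IP runs against shallower inputs.

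For WT IP against KO IP, which sets the pulled-down RNA against the antibody background, 4 genes lay above 0 and 5 below, with a median of −0.06 against −0.01 for all rows. Gzmb had −1.57 ± 1.54 and Prf1 −1.78 ± 1.32, while Ccl4 had 0.88 ± 1.32, Srgn 0.13 ± 1.07 and Ccl5 −0.09 ± 0.89 (edgeR adjusted p = 1.0 for each). The library values were 826.5 CPM in WT IP and 3065.3 in KO IP for Gzmb and 409.2 and 469.6 for Srgn. Each KO IP value is a sum of 2 runs that differed as given above. In the batch 2 runs alone, which set a shallower WT IP run against a deeper KO IP run, Srgn turned to −3.19.

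For WT IP against WT input, 7 genes lay above 0 and 2 below, with a median of 1.43 against −0.10 for all rows. The 2 below were Gzmb at −0.99 ± 1.36 and Prf1 at −1.61 ± 1.22, and those above included Ccl4 at 3.82 ± 1.43, Ccl5 at 1.54 ± 0.76 and Srgn at 1.43 ± 0.89. Ccl4 had the smallest p of the 9, with an adjusted p of 0.634 by edgeR. Its library values were 23.1 CPM in WT IP, 10.4 in WT input D1 on 2 counts and 0.908 in WT input RIP8 on 4 counts. Gzmb had 826.5 CPM in WT IP, between the input libraries D1 at 291.5 and RIP8 at 4113.7, so its direction depended on which input it was set against. Without WT input RIP8 Gzmb turned to 2.04, and Srgn had 2.66 and Ccl5 1.83. These genes passed the threshold, as did 34.5% of all rows. Without WT input D1 Gzmb was −1.91, Prf1 −2.20 and Ccl4 5.01, and these passed with 9.14% of all rows. In both fits the spread came only from the difference between the KO inputs, so these calls are not read as results. Taking the run outside batch 2 where a library had 2, which sets a deeper WT IP run against shallower inputs, gave calls for Gzmb (0.0136), Srgn (0.000719) and Ccl5 (0.00366). In that fit 47.6% of all rows were called.

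For KO IP against KO input, where the label names cells without CPEB4, all 6 genes with a count in a KO input lay above 0, with a median of 2.87 against 0.13 for all rows with one, of which 47.1% lay below 0. Ccl5 had 3.96 ± 0.90 and Srgn 3.05 ± 0.93, both with an adjusted p of 0.259 by edgeR, and Gzmb had 3.36 ± 1.28 (adjusted p = 0.281). Ccl5 had 136.3 CPM in KO IP against 15.0 on 3 counts and 7.01 on 2 counts in the KO inputs, and Srgn 469.6 CPM against 95 and 45.5. DESeq2 called Ccl5 (adjusted p = 0.0369) and 3.73% of the rows to which it gave an adjusted p. Without WT input D1 edgeR called Gzmb, Srgn, Prf1 and Ccl5 and 25.7% of all rows, and without WT input RIP8 it called Gzmb, Srgn and Ccl5 and 35.2%. Both fits took their spread only from the difference between the KO inputs, so these calls are not read as results. Ccl3 had 0 counts in both KO inputs. Its KO IP value of 8.57 CPM was 1.39-fold the floor of 3 counts over both inputs. This ratio leaves out the counting error of KO IP, and with an adjusted p of 0.348 by edgeR a difference was not shown. The ratio rests on batch 2 of the library, with 13.8 CPM, since batch 3 had 0.406 CPM. The levels of Gzma and Xcl1 in KO IP lay under that floor of 6.18 CPM, so their direction is not known. Both runs of KO IP are deeper runs and both KO inputs are shallower runs, so this contrast and the depth classes cannot be told apart.

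For KO input against WT input, 5 of the 6 genes with a count in a KO input lay below 0 and 1 above, with a median of −2.03 against −0.06 for all rows with one. Gzmb had −2.78 ± 1.14 and Ccl5 −2.33 ± 0.84 (adjusted p = 0.953 by edgeR for both), Srgn −1.74 ± 0.81 and Prf1 −2.53 ± 1.31, and Ccl4 had 0.77 ± 1.72. The WT side was set by the library WT input RIP8, with 4113.7 CPM of Gzmb against 291.5 in WT input D1. Without WT input RIP8 Gzmb turned to 0.33. Without WT input D1 Gzmb, Srgn, Prf1 and Ccl5 passed the threshold, all lower in KO, as 20.2% of all rows passed in either direction. The spread in that fit came only from the difference between the KO inputs, so its calls are not read as results. These 5 comparisons share libraries, so their values are not separate evidence.

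**Figure D4:**
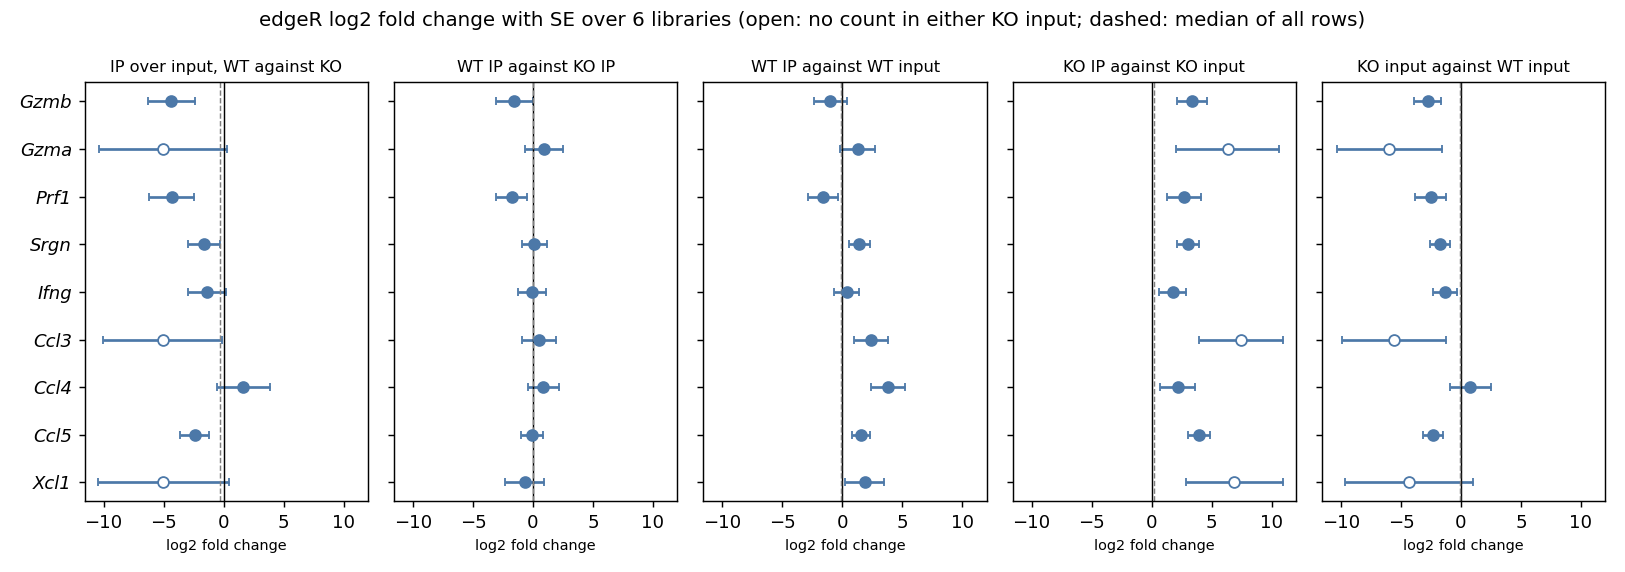
Log2 fold change of each gene with its SE in the 5 edgeR comparisons over 6 libraries; open points are genes with 0 counts in both KO inputs, whose position depends on the fit, and the dashed line is the median of all rows. In KO IP against KO input the 6 filled points lie right of 0, in KO input against WT input all filled points but Ccl4 lie left of it, and no point passed the threshold.

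Other genes of the granule were read from a list that did not hold these 9. Of 17 further granzymes, granule and killer lectin genes 16 were matched to a row and 10 tested, and edgeR called 0 in each comparison. Nkg7, a granule membrane protein, lay at 182.6 to 326.5 CPM in the deeper runs and 26.0 to 72.5 in the shallower. Lamp1, the lysosomal membrane protein that marks degranulation, lay at 113.3 to 146.4 and 9.45 to 38.5 CPM, and Cst7, a cathepsin inhibitor, at 100.2 to 186.3 and 21.0 to 50 CPM. Klrk1, the activating receptor NKG2D, overlapped, at 56.0 to 222.0 and 150.6 to 394.9 CPM.

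Of 18 genes of granzyme maturation, granule release and granzyme inhibition, 17 were matched, 16 tested and 0 called by edgeR in any comparison. Ctsd, a lysosomal protease, had 381.3 to 1225.3 CPM in the deeper runs against 59.6 to 148.1 in the shallower, and Ctsb had 215.0 to 279.0 against 64.2 to 105.1. Serpinb6b, a serpin, had 140.8 to 326.2 against 28.0 to 50 CPM. Rab27a, the small GTPase needed for granule release, overlapped, at 118.5 to 289.7 and 119.7 to 207.3 CPM. In KO IP against KO input 13 of these 16 genes lay above 0, with a median of 1.28, and in WT IP against KO IP 8 lay above and 8 below.

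Of 20 other cytokines and chemokines of activated T cells, 17 were matched, 12 tested and 0 called by edgeR. Mif, a macrophage-acting cytokine, had 605.0 to 1280.2 CPM in the deeper runs and 50 to 103.6 in the shallower, and Ltb, a lymphotoxin subunit, 87.9 to 260.9 and 9.45 to 49.4 CPM. The other lymphotoxin gene, Lta, was at 187.5 CPM in KO IP D1 batch 3 and 170.8 in the deeper run of WT input RIP8, against 80.4 and 75.8 in the other deeper runs. That is the pairing of runs seen for Gzmb, with the higher pair the same. Il16 overlapped between the depth classes, at 107.7 to 182.9 and 59.9 to 153.0 CPM.

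Many of the genes were alike across the runs, and not in separate pairs. The correlation of log2(CPM + 1) over the 9 runs, given as a description, was 0.905 for Gzmb with Prf1, 0.941 for Srgn with Ccl5, 0.896 for Ccl5 with Xcl1 and −0.00165 for Gzmb with Ccl4. It was 0.911 for Gzma with Srgn, 0.888 for Srgn with Xcl1 and 0.854 for Gzmb with Gzma. The 9 runs share libraries and fall into the depth classes, and genes at few counts have coarse values in the shallow runs. Among 3848 rows with a mean of at least 50 CPM, the genes most like Gzmb were Ppp2r5d (0.991), Lcp1 (0.988) and Pgam1 (0.988), and those most like Srgn were Ly6c2 (0.993), Stk39 (0.988) and Rpl41 (0.987). Those most like Ccl5 were Map7d1 (0.976), Fkbp8 (0.973) and Thoc3 (0.971), and for Prf1 they were Prdx6 (0.975), Ap2a2 (0.966) and Cfl1 (0.961). For Ifng they were Cacybp (0.954), Yeats4 (0.952) and Fen1 (0.948). For Ccl4 they were Arfgef1 at 0.905, Fbxw7 at 0.892 and Mob4 at 0.884. Ccl3 had Tapbpl (0.923), Trabd (0.913) and Klrd1 (0.901), Xcl1 had Ms4a4b (0.976), Acin1 (0.963) and Psmb9 (0.962), and Gzma had Cnbp (0.989), Sf3b2 (0.987) and Atp5a1 (0.984).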

How the data were processed

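The deposited table holds raw read counts per 3′ UTR and run, made by the authors with featureCounts, R 3.5.1, Bowtie2 2.2.2, Bowtie 1.2.3 and the mm10 build, per the submitters' processing notes. The strand setting, the annotation and the rule for multi-mapping reads are not given. Adjacent rows that share a UTR start held identical counts in 25 of 49 cases over the first 9 columns, against 0 of 60 in the other 11, whose rank correlation with the first 9 was at most 0.0131 in size, so the 11 were not used. Symbols were assigned by position and row order from the RefSeq table of GRCm38.p6, giving 16242 rows a name. CPM leave out the Lars2 row. Intervals are exact 95% Poisson or binomial intervals and cover counting error only. Ratios were formed for pairs of 20 or more counts. edgeR 4.0.16 in R 4.3.3 was run with TMM factors, filterByExpr and a group means model over 6 libraries, with 2 residual degrees of freedom and a common dispersion of 0.281. DESeq2 1.42.0 was an alternative. The genes and lists were chosen with earlier results of these data known. From each list the 4 genes with the most counts were named, except 1 that is not reported here, and the 3 genes most like each gene came from the correlation over runs.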

Additional observations from a re-analysis of the deposited data

How the results depend on the processing

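Counts of rows called by edgeR changed with most choices. For the IP over input ratio, WT IP against KO IP, WT IP against WT input, KO IP against KO input and KO input against WT input, in that order, leaving out 1 input library gave ranges of 0 to 1186, 0 to 22, 0 to 2639, 0 to 2984 and 0 to 2343, with the high ends without WT input D1 or WT input RIP8 and 0 without either KO input. IP libraries could not be left out, since each is alone in its group. Without a WT input the spread comes only from the difference between the KO inputs, so those counts show dependence on the choice and are not read as results. DESeq2 called 43, 196 and 24 in the last 3, and no filter on low counts gave 94, 594 and 84. The other run of each library, the one outside batch 2 where there were 2, set deeper IP runs against shallower inputs. It gave 537 for WT IP against KO IP, 3774 for WT IP against WT input and 1770 for KO IP against KO input. The replicate block, with the names D1 and RIP8 as pairs, gave 536, 1977 and 2 in the last 3. In KO IP against KO input it called Gzmb, Srgn and Ccl5 (adjusted p = 0.00161, 0.00334 and 0.0007). The labels do not say that the names mark a shared animal, batch or day, and with 2 names the pairing could not be checked. With batch 2 runs alone, and with the Lars2 row kept, 0 were called.

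Some log2 values turned sign. With the other run of each library the ratio turned for Srgn (1.03) and Ccl5 (0.20), WT IP against KO IP for Ccl5 (1.43), WT IP against WT input for Gzmb (1.69) and KO input against WT input for Srgn (0.08). With batch 2 runs WT IP against KO IP turned for Srgn (−3.19), and WT IP against WT input for Srgn (−1.69), Ifng (−1.61) and Ccl5 (−1.88). By DESeq2 and without a filter WT IP against KO IP turned for Ifng (0.11) and Ccl5 (0.08). WT IP against WT input turned for Gzmb with the replicate block (1.22). With 1 input library left out it ranged from −1.91 to 2.04 for Gzmb, turning without WT input RIP8, and from −0.17 to 0.37 for Ifng, turning without WT input D1. KO input against WT input ranged from −3.69 to 0.33 for Gzmb, turning without WT input RIP8. The cause was not tested. Of the CPM values, 11 left their counting interval with the Lars2 row in the total and 70 did not, and 14 did and 67 did not with TMM factors, by which Gzmb in WT IP D1 batch 3 was 1269.9 CPM. Each gene had 1 row, so summing rows per gene changed nothing. In the shallow runs the genes other than Gzmb and Srgn had 0 to 8 counts and could not be ordered. Srgn could not either, since its intervals there, on 13 to 19 counts, overlapped.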

Other observations

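Receptors were read from a list of their own. Of 7 listed, 7 were matched and 5 tested, and edgeR called 0 in each comparison. Ifngr1, the ligand-binding interferon gamma receptor chain, had 355.6 to 873.5 CPM in the deeper runs and 128.3 to 239.4 in the shallower, while Ifngr2, its partner chain, had 30.6 to 62.9 and 15.6 to 56.7 CPM. Cd44, an adhesion receptor, was at 418.0 CPM in WT IP D1 batch 3 and 261.6 in KO IP D1 batch 2 against 81.3 in the deeper run of WT input RIP8 and 69.0 in KO IP D1 batch 3.

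Of 19 regulators of effector genes all were matched and tested and 0 called by edgeR. Runx3, a transcription factor of the CD8 lineage, lay at 843.6 to 1895.6 CPM in the deeper runs and 901.1 to 1089.6 in the shallower. Stat5a, which acts downstream of IL-2, lay at 642.0 to 1290.2 and 658.6 to 952.5 CPM, its relative Stat5b at 131.8 to 417.1 and 359.9 to 504.4 CPM, and the transcription factor Bhlhe40 at 353.8 to 684.5 and 315.8 to 513.6 CPM.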
